A study of Mus musculus with 4 samples.

Results

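Early streak cells are epiblast cells that have begun to express the transcription factors of the primitive streak but not yet those of nascent mesoderm. Here they were chosen by UMIs (unique molecular identifiers, counts of captured transcripts): at least 1 UMI of *Pou5f1*, a transcription factor of pluripotent cells, at least 1 UMI of *T* (Brachyury, a T-box factor of the streak) or *Mixl1* (a homeobox factor of the streak), and no UMI of *Mesp1*, *Elf5*, *Ascl2* or *Apob*. *Mesp1* encodes a factor of nascent mesoderm, *Elf5* and *Ascl2* encode factors of extra-embryonic ectoderm and its derivatives, and *Apob* encodes an apolipoprotein of visceral endoderm. The rule took 565 of the 7629 cells of the MS-LS and OB-EB libraries, out of 11123 cells in the whole series. They were 287 of 3635 cells in MS-LS, 7.90% (exact Clopper-Pearson 95% interval 7.04 to 8.82%), and 278 of 3994 cells in OB-EB, 6.96% (6.19 to 7.79%). Inside each library they were compared with cells that had *Pou5f1* but no UMI of *T*, *Eomes* (another T-box factor of the streak), *Mixl1* or *Mesp1*, called epiblast cells below: 1035 in MS-LS and 1236 in OB-EB.

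The study used single-cell RNA sequencing of dissociated mouse embryos (10x Genomics 3′ libraries, with the embryos of a stage pooled into 1 library) to ask how cells that leave the streak at successive stages differ. All embryos carried TnEGP-CreERT2/+; R26Rtdtomato/R26Rtdtomato, in which CreERT2 is made from the *T* locus and tamoxifen lets it switch on tdTomato in cells expressing *T* at that time. For MS-LS, tamoxifen was given orally by gavage, at 0.08 mg/bw, at E6+5h, and the embryos were dissected at E6+21h; for OB-EB it was given at E6+21h and dissection followed at E7+3h. A later stage, EHF (dissected at E7+14h), does not enter the comparisons. Each stage is 1 library, so stage and library cannot be told apart, there is no replicate check, and no difference was tested.

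The primitive streak forms in the posterior epiblast under Nodal, Wnt, BMP and FGF signals. There, epithelial epiblast cells switch on *T*, *Eomes* and *Mixl1*, change their cadherins, leave the epithelium and become mesoderm or definitive endoderm. Cells at the anterior end of the streak give rise to the node, axial mesoderm and endoderm, while cells further back give rise to cranial, lateral and extra-embryonic mesoderm.

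The MS-LS table held 17966956 UMIs, with a median of 4251 per cell (1001 to 28986), and that of OB-EB held 12181436 UMIs, with a median of 2620.5 (1003 to 19709). Streak cells were a little deeper than epiblast cells in both: the median UMIs per cell were 4502 against 3920 in MS-LS and 3046.5 against 2531.5 in OB-EB. The groups summed to 1491168 and 4505851 UMIs in MS-LS and to 946410 and 3540543 UMIs in OB-EB. The median mitochondrial share was similar, 1.61% in streak and 1.52% in epiblast cells of MS-LS and 1.83% and 1.70% in OB-EB. *Xist* and Y-linked transcripts placed 67 streak cells of MS-LS as female and 70 as male, and 75 and 50 in OB-EB, so both sexes contributed to both. The MS-LS and OB-EB tables shared 18 cell barcodes, of which 3 belonged to MS-LS streak cells and 1 to an OB-EB streak cell; MS-LS shared 12 with EHF, none of a streak cell, and OB-EB shared 14, 1 of a streak cell. Of the streak cells, 111 in MS-LS (38.7%) and 69 in OB-EB (24.8%) carry a barcode that the study placed in its primitive streak clusters; these are 31.4% of the 354 and 27.4% of the 252 such barcodes.

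Levels below are CPM, the UMIs of a gene per 1000000 UMIs of the cells of a group, and brackets after log2 ratios (streak over epiblast) give exact 95% intervals that cover counting error only; a number before such a bracket is a log2 ratio. The genes that chose the cells are given as a description. *Pou5f1*, required of both groups, stood at 721 CPM in streak cells and 884 CPM in epiblast cells of MS-LS, and at 651 and 777 CPM in OB-EB. *T* stood at 166 CPM in the streak cells of MS-LS and 414 CPM in those of OB-EB, while *Mixl1* stood at 149 and 146 CPM; both are 0 in epiblast cells by the rule. *Eomes*, which the rule kept out of epiblast cells only, stood at 211 CPM in streak cells of MS-LS and 114 CPM in those of OB-EB. Most streak cells sat at the threshold: 187 of 287 in MS-LS (65.2%) and 162 of 278 in OB-EB (58.3%) had a single UMI of *T* and *Mixl1* together. A UMI of *T* was also found in 7.09% of the MS-LS and 9.93% of the OB-EB cells with *Elf5*, *Ascl2* or *Apob*, and 1 of *Mixl1* in 6.55% and 5.51%. How many streak cells owe their place to a stray UMI was not tested. Just outside the rule lay 274 MS-LS and 233 OB-EB cells that had *Pou5f1* and *T* or *Mixl1* but also *Mesp1*, and 37 and 18 without *Mesp1* but with *Elf5*, *Ascl2* or *Apob*. A further 181 and 296 cells had *T* or *Mixl1* but no *Pou5f1*, and 390 and 139 cells had *Pou5f1* and *Eomes* but no *T*, *Mixl1* or *Mesp1*.

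Streak cells differed from epiblast cells in the same direction in both libraries for a small share of genes, and part of the decrease goes when the groups are made alike. A gene was measured in a library when it had at least 100 UMIs over both groups, and a difference was counted past 1.5-fold. Of 4987 genes measured in MS-LS, 164 (3.29%) were higher and 214 (4.29%) lower in streak cells, and of 4252 in OB-EB 185 (4.35%) were higher and 192 (4.52%) lower; the genes of the rule are left out. In both libraries, 52 genes (1.27% of the 4107 measured in both) were higher and 67 (1.63%) lower. The lower count leans on the rule: against epiblast cells also without *Elf5*, *Ascl2* and *Apob*, a count chosen after seeing the data, 51 genes were higher and 46 lower, of which 42 and 40 were among the 52 and 67. With cells thinned to 2000 UMIs before the rule, also counted after seeing the data, 23 were higher and 28 lower, 12 and 19 of them among the 52 and 67. The median log2 ratio over all measured genes was 0.01 in MS-LS and 0.02 in OB-EB. Just 3 genes passed 1.5-fold in opposite directions. The plot of all genes in both libraries shows the 20 genes named by size of change at the corners, away from the cloud around 0.

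**Figure D1:**
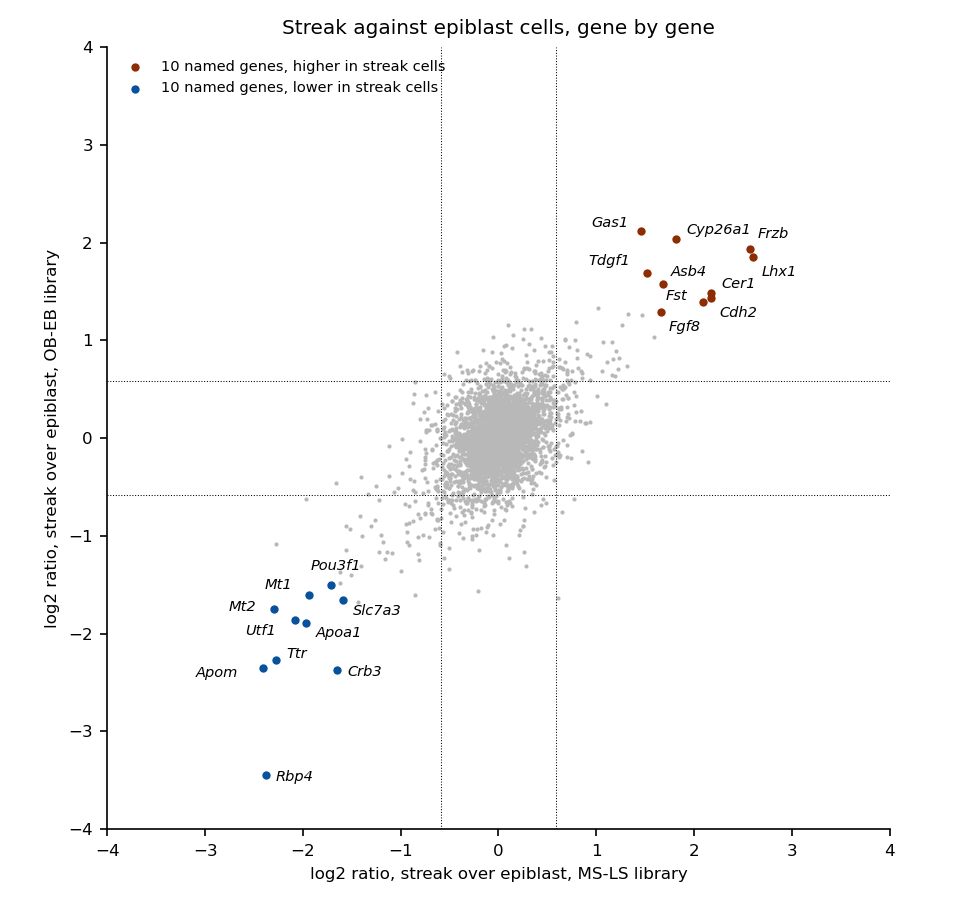
Each point is a gene measured in both libraries (the genes of the rule left out); the axes give the log2 ratio of streak over epiblast cells in MS-LS and in OB-EB, and dotted lines mark 1.5-fold. The 10 genes named as higher (brown) and the 10 named as lower (blue) lie past 1.5-fold in both libraries.

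The 10 genes with the largest increase in both libraries were *Frzb*, *Lhx1*, *Cyp26a1*, *Asb4*, *Tdgf1*, *Cer1*, *Gas1*, *Cdh2*, *Fst* and *Fgf8*. *Lhx1*, a LIM homeobox factor of the anterior streak and node (chr11:84518284-84525535, GRCm38.p6), was measured at 117 CPM in streak and 19.3 CPM in epiblast cells of the MS-LS library, and 149 and 41.2 CPM in OB-EB. For *Lhx1* the log2 ratios were 2.60 (2.22 to 2.99) and 1.85 (1.51 to 2.20). *Cer1*, a secreted antagonist of Nodal, BMP and Wnt ligands (chr4:82881751-82885148), stood at 131 CPM in streak and 29.1 CPM in epiblast cells of the MS-LS library, and 76.1 and 27.1 CPM in OB-EB. For *Cer1* the log2 ratios were 2.17 (1.84 to 2.50) and 1.49 (1.03 to 1.94). The *Cer1* level is carried by few cells: 40 of 287 streak cells of MS-LS (13.9%) hold its 195 UMIs, 162 of them in cells with a single UMI of *T* and *Mixl1*, and 26 of 278 in OB-EB (9.35%) have any. *Cer1* is the least stable of the 10: in MS-LS its log2 ratio was 0.0027 when every cell was thinned to 2000 UMIs before the rule was applied. With the study's own streak barcodes the *Cer1* ratio was 0.0088 in MS-LS and -2.77 in OB-EB. *Frzb*, a secreted Wnt antagonist (chr2:80411970-80447625), stood at 69.7 CPM in streak and 11.8 CPM in epiblast cells of the MS-LS library, and 138 and 36.2 CPM in OB-EB. For *Frzb* the log2 ratios were 2.57 (2.08 to 3.07) and 1.94 (1.57 to 2.30). *Fst*, follistatin, which binds and blocks activin and BMP ligands (chr13:114452290-114458951), was the most abundant of the 10 in OB-EB, with 288 CPM in streak and 110 CPM in epiblast cells, and 183 and 43.1 CPM in MS-LS, log2 ratios of 1.39 (1.16 to 1.62) in OB-EB and 2.09 (1.82 to 2.36) in MS-LS. *Lhx1*, *Frzb* and *Fst* kept their increase under every alternative run.

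*Tdgf1*, the EGF-CFC co-receptor through which Nodal signals, reached 292 CPM in streak and 102 CPM in epiblast cells of the MS-LS library, and 151 and 46.9 CPM in OB-EB. For *Tdgf1* the log2 ratios were 1.52 (1.33 to 1.71) and 1.69 (1.36 to 2.02). *Fgf8*, the FGF ligand that mesoderm needs to leave the streak, reached 222 CPM in streak and 70.4 CPM in epiblast cells of the MS-LS library, and 143 and 58.5 CPM in OB-EB. For *Fgf8* the log2 ratios were 1.66 (1.43 to 1.88) and 1.29 (0.96 to 1.61). *Cyp26a1*, an enzyme that breaks down retinoic acid, stood at 96.6 CPM in streak and 27.5 CPM in epiblast cells of the MS-LS library, and 69.7 and 16.9 CPM in OB-EB. For *Cyp26a1* the log2 ratios were 1.81 (1.45 to 2.17) and 2.04 (1.51 to 2.57). *Tdgf1*, *Fgf8* and *Cyp26a1* were past 1.5-fold against epiblast cells in both libraries, though in MS-LS *Cyp26a1* is found in a larger share of the cells with *Elf5*, *Ascl2* or *Apob* than of streak cells, as given below. *Cdh2*, N-cadherin, which replaces E-cadherin in mesoderm, stood at 73.1 CPM in streak and 16.2 CPM in epiblast cells of the MS-LS library, and 111 and 41.2 CPM in OB-EB. For *Cdh2* the log2 ratios were 2.17 (1.73 to 2.62) and 1.43 (1.05 to 1.80). *Gas1*, a membrane protein that binds hedgehog ligands, stood at 33.5 CPM in streak and 12.2 CPM in epiblast cells of the MS-LS library, and 93.0 and 21.5 CPM in OB-EB, log2 ratios of 1.46 (0.88 to 2.04) and 2.11 (1.66 to 2.58); among female cells of MS-LS alone its log2 ratio was 0.21. *Asb4*, a substrate adaptor of ubiquitin ligases, was measured at 46.9 CPM in streak and 14.6 CPM in epiblast cells of the MS-LS library, and 70.8 and 23.7 CPM in OB-EB (shares beside background cells are given below). For *Asb4* the log2 ratios were 1.68 (1.17 to 2.19) and 1.58 (1.09 to 2.06).

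Promoter sequence was searched because these genes moved together. RefSeq windows (GRCm38.p6, 250 bases before to 50 after a start) were matched by symbol for 7 of the 10 higher genes (8 windows) and for 7 of the 10 genes with the largest decrease, named below (9 windows); *Cdh2*, *Fst*, *Fgf8*, *Ttr*, *Slc7a3* and *Pou3f1* had no entry. The letters searched on both strands were TCACACCT (T-box), CTTTGAT (TCF/LEF), AATCCACA (FOXH1) and ATGCAAAT (octamer, bound by POU factors), none of which contains another. Of all 32851 windows, 419 (1.28%) held the T-box letters, 1225 (3.73%) those of TCF/LEF, 281 (0.855%) those of FOXH1 and 570 (1.74%) the octamer. Among the higher genes 1 window, of *Asb4*, held any of them (the octamer, on the opposite strand), and among the lower genes 1, of *Rbp4* (TCF/LEF). The *Asb4* window is shown as the single match among the higher genes, 5′ to 3′ on the + strand of chr6:5383136-5383435 with the match in capitals; a match describes the letters and no more.
Asb4: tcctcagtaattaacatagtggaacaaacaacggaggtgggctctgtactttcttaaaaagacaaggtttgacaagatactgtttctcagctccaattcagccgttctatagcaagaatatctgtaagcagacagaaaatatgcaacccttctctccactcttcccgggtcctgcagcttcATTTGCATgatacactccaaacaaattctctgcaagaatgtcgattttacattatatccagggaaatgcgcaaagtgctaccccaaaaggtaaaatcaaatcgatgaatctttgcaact

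The 10 genes with the largest decrease in both libraries are given in 3 sets. *Utf1*, *Pou3f1*, *Slc7a3* and *Crb3* kept their decrease in both libraries when the groups were made alike. *Rbp4*, *Apom*, *Ttr* and *Apoa1*, of visceral endoderm, then lost most or all of it in MS-LS but stayed lower in OB-EB. The metallothioneins *Mt1* and *Mt2* stayed lower in both, by smaller ratios. *Utf1*, a chromatin factor of pluripotent cells, dropped from 328 CPM in epiblast cells to 77.8 CPM in streak cells of MS-LS and from 219 to 60.2 CPM in OB-EB, log2 ratios of -2.08 (-2.36 to -1.80) and -1.86 (-2.28 to -1.47). *Pou3f1*, a POU factor of the anterior epiblast and its neural derivatives, dropped from 99.0 to 30.2 CPM and from 261 to 91.9 CPM, log2 ratios of -1.71 (-2.19 to -1.27) and -1.504 (-1.84 to -1.19). *Slc7a3*, a carrier of cationic amino acids, dropped from 113 to 37.6 CPM and from 70.0 to 22.2 CPM, log2 ratios of -1.59 (-2.02 to -1.19) and -1.66 (-2.38 to -1.01). *Crb3*, an apical polarity protein of epithelia, dropped from 44.2 to 14.1 CPM and from 27.4 to 5.28 CPM, log2 ratios of -1.65 (-2.37 to -0.997) and -2.37 (-4.03 to -1.10). *Crb3* is not particular to the epiblast: it was found in 16.8% of epiblast cells and 21.0% of cells with *Elf5*, *Ascl2* or *Apob* in MS-LS (5.28% and 6.95% thinned to 1500 UMIs), and in 7.12% and 12.1% in OB-EB (4.22% and 4.02%). *Utf1*, *Pou3f1*, *Slc7a3* and *Crb3* kept their decrease when epiblast cells with a UMI of *Elf5*, *Ascl2* or *Apob* were left out, as the rule already asks of streak cells: the log2 ratios in MS-LS and OB-EB were then -2.16 and -1.89 for *Utf1*, -1.73 and -1.54 for *Pou3f1*, -1.65 and -1.72 for *Slc7a3*, and -1.56 and -2.38 for *Crb3*.

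The visceral endoderm genes behaved otherwise in MS-LS, while in OB-EB their decrease became smaller but stayed. *Ttr*, a carrier of thyroid hormone, stood at 64.4 CPM in streak and 312 CPM in epiblast cells of the MS-LS library, and 45.4 and 219 CPM in OB-EB. For *Ttr* the log2 ratios were -2.28 (-2.59 to -1.98) and -2.27 (-2.75 to -1.82). *Apoa1*, a lipoprotein component, stood at 79.8 CPM in streak and 313 CPM in epiblast cells of the MS-LS library, and 44.4 and 164 CPM in OB-EB, log2 ratios of -1.97 (-2.26 to -1.70) and -1.89 (-2.38 to -1.44). *Rbp4*, which carries retinol, stood at 29.5 CPM in streak and 154 CPM in epiblast cells of the MS-LS library, and 7.40 and 80.5 CPM in OB-EB, log2 ratios of -2.38 (-2.86 to -1.94) and -3.44 (-4.77 to -2.38). *Apom*, another apolipoprotein, stood at 30.8 CPM in streak and 164 CPM in epiblast cells of the MS-LS library, and 20.1 and 103 CPM in OB-EB, log2 ratios of -2.41 (-2.88 to -1.98) and -2.36 (-3.11 to -1.69). All 4 were lower in both libraries before the groups were made alike. Against epiblast cells that also lacked *Elf5*, *Ascl2* and *Apob* (916 in MS-LS and 1153 in OB-EB), the log2 ratios in MS-LS became 0.02 for *Ttr*, 0.33 for *Apoa1*, 0.44 for *Rbp4* and -0.24 for *Apom*, so that 3 of the 4 changed sign. In OB-EB they became -0.71, -0.59, -1.80 and -1.12. Of 15 visceral endoderm genes listed, all 10 measured in MS-LS and all 7 measured in OB-EB were lower in streak cells, with medians of -1.95 and -1.89. Their summed level was 1010 CPM in streak and 3159 CPM in epiblast cells of MS-LS, and 643 and 2110 CPM in OB-EB. *Spink1*, a secreted protease inhibitor, was the most abundant, at 589 CPM in streak and 1591 CPM in epiblast cells of the MS-LS library, and 360 and 1155 CPM in OB-EB; *Trf* and *Fgb* had no UMI in the streak cells of either library, nor *Soat2* in those of OB-EB.

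The plot of visceral endoderm transcripts per cell shows how these UMIs were spread over cells. Cells with over 0.3% of their UMIs on 14 of those genes (*Spink1* left out), or over 0.1% on 9 extra-embryonic ectoderm genes, were 84 of the 1035 epiblast cells of MS-LS (8.12%) and 51 of the 1236 of OB-EB (4.13%), but 3 (1.05%) and 4 (1.44%) of the streak cells. The streak rule alone bars *Elf5*, *Ascl2* and *Apob*; of the epiblast cells without them, 19 of 916 (2.07%) and 19 of 1153 (1.65%) passed these limits, close to the streak shares. Without the cells past these limits, which were set after the shares were seen, the visceral endoderm list stood at 659 and 759 CPM in MS-LS and 637 and 880 CPM in OB-EB, and 1 of 10 and 2 of 7 measured members were still lower past 1.5-fold. The limits use 14 genes of the same list, so part of this change is set by the filter. The extra-embryonic ectoderm list, of which *Rhox5* alone was measured, summed to 43.6 CPM in streak and 180 CPM in epiblast cells of MS-LS and to 84.5 and 129 CPM in OB-EB; *Bmp8b* had no UMI in streak cells of either. *Rhox5*, a homeobox gene and the list's most abundant, had ratios of -2.28 and -1.09 (log2), and of -0.82 and -0.06 against epiblast cells without *Elf5*, *Ascl2* and *Apob*. Without the cells past the limits it was still lower past 1.5-fold in OB-EB but not in MS-LS.

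**Figure D2:**
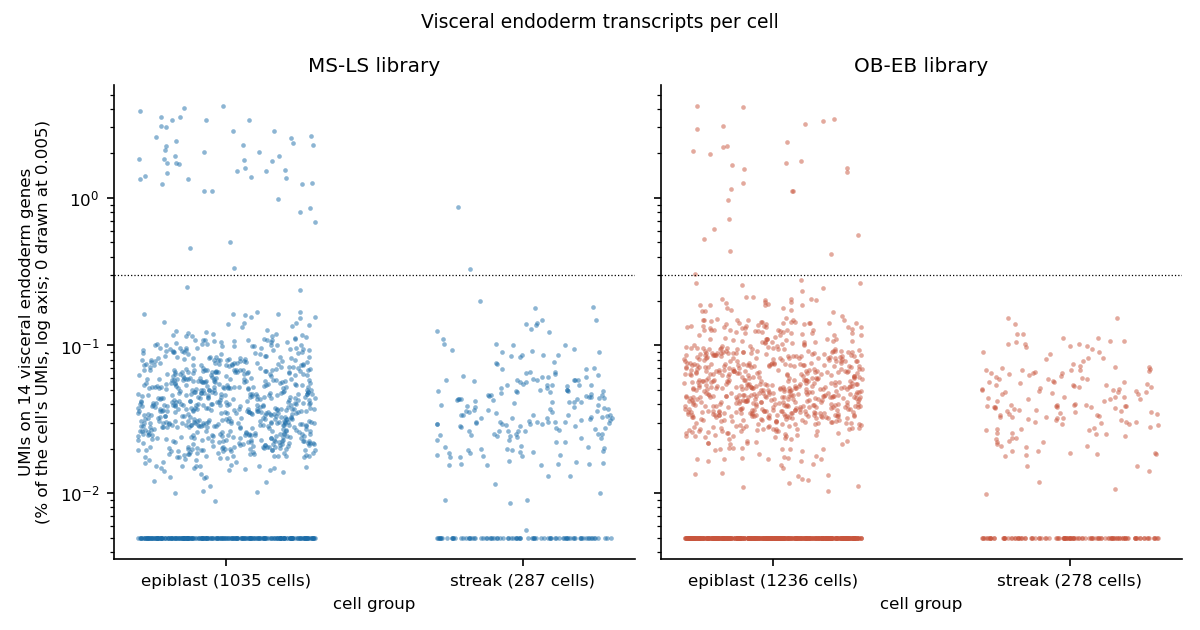
Each point is a cell; the vertical log axis gives the percent of its UMIs on 14 visceral endoderm genes, with 0 drawn at 0.005, and the dotted line marks 0.3%. A separate group of epiblast cells lies above the line in both libraries, while 2 streak cells of MS-LS and none of OB-EB do.

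Metallothioneins bind zinc and copper and are switched on by metals. *Mt1* stood at 130 CPM in streak and 499 CPM in epiblast cells of the MS-LS library, and 95.1 and 289 CPM in OB-EB, log2 ratios of -1.94 (-2.16 to -1.73) and -1.60 (-1.93 to -1.29). *Mt2* stood at 39.6 CPM in streak and 194 CPM in epiblast cells of the MS-LS library, and 34.9 and 118 CPM in OB-EB, log2 ratios of -2.30 (-2.70 to -1.92) and -1.75 (-2.31 to -1.24). The pair was lower in both libraries. Neither gene is particular to the epiblast. In MS-LS *Mt1* was found in 42.9% of streak, 54.2% of epiblast and 92.2% of cells with *Elf5*, *Ascl2* or *Apob*. For *Mt2* these shares were 17.1%, 32.6% and 85.3%. In OB-EB they were 21.6%, 32.1% and 78.9% for *Mt1*, and 10.1%, 17.1% and 63.6% for *Mt2*. Against epiblast cells without *Elf5*, *Ascl2* and *Apob* the log2 ratios were -0.92 and -0.88 for *Mt1* and -1.36 and -1.18 for *Mt2*. In MS-LS these lay between the other sets of lower genes, while in OB-EB they lay within the range of the visceral endoderm genes. The promoters of *Mt1* and *Mt2* are shown because the genes are neighbours on chromosome 8 and moved together. The core of the metal response element, TGCACNC or TGCGCNC on either strand with overlaps counted, was chosen after the values were seen. It occurs at least once in 8444 of the 32851 windows (25.7%); *Mt1* holds 3 matches, a number that 647 windows (1.97%) reach, and *Mt2* holds 4, which 170 windows (0.517%) reach. Matches are in capitals in the windows chr8:94178839-94179138 (*Mt1*) and chr8:94172368-94172667 (*Mt2*), both on the + strand, 5′ to 3′, credited to RefSeq as above.
Mt1: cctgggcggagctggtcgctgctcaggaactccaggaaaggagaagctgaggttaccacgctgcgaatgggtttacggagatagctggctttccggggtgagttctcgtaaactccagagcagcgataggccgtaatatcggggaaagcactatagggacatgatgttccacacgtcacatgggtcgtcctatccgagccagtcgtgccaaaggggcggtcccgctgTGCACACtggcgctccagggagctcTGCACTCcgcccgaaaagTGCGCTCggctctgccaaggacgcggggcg
Mt2: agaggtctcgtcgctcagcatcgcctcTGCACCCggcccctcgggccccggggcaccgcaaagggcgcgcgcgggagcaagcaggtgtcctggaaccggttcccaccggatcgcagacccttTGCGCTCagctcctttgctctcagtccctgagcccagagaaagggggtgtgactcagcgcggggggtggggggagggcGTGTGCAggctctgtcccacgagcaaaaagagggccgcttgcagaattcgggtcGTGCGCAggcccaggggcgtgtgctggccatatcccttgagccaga

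**Figure D3:**
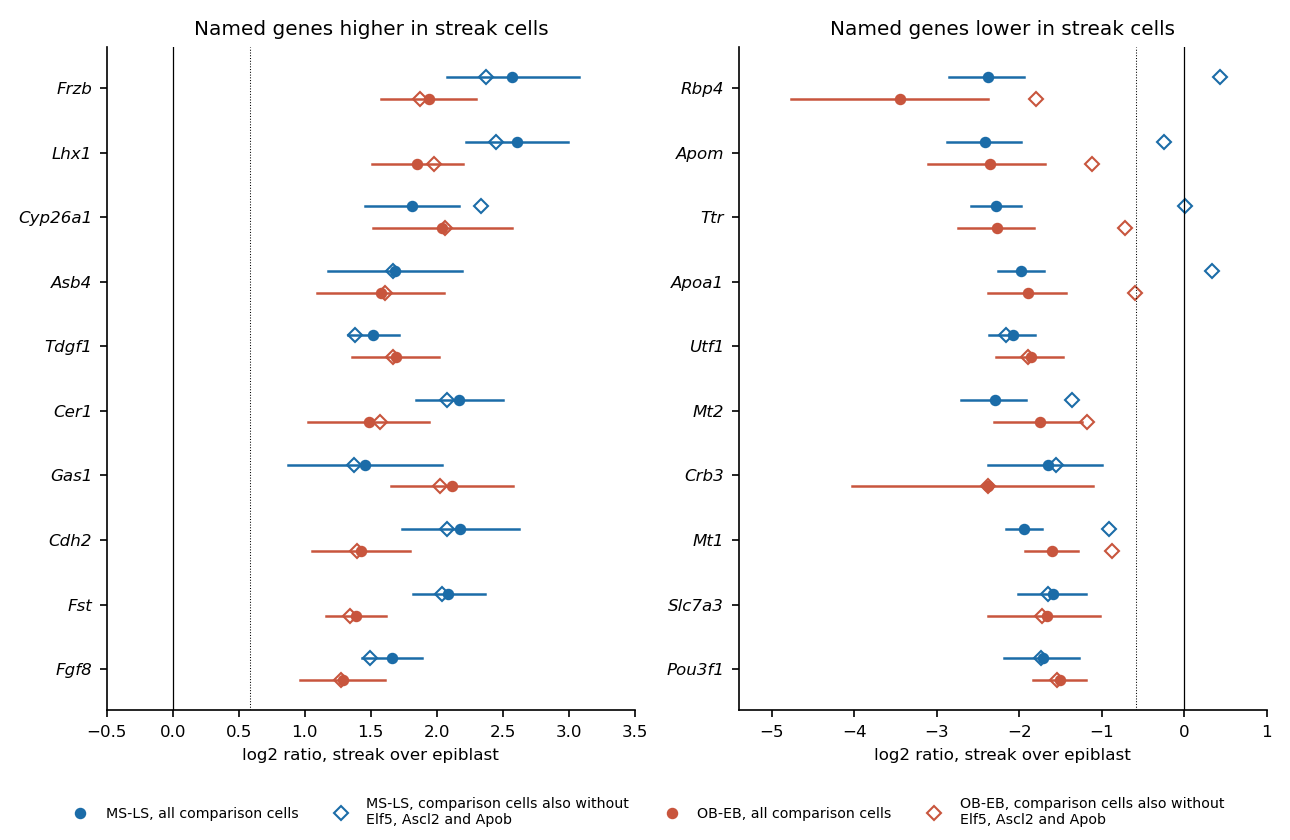
Log2 ratios of streak over epiblast cells for the 20 named genes in MS-LS (blue) and OB-EB (red); filled points carry exact 95% counting intervals, and open diamonds use epiblast cells that also lack UMIs of Elf5, Ascl2 and Apob. The diamonds stay near the filled points for the 10 higher genes and for Utf1, Crb3, Slc7a3 and Pou3f1, and move towards 0 for the visceral endoderm genes and the metallothioneins.

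Among the pathways that act in the streak, the Nodal list had 3 of 5 measured members higher in MS-LS and 2 of 2 in OB-EB, with none lower and medians of 1.08 and 1.59, against 0.01 and 0.02 for all genes. Beside *Tdgf1* and *Cer1*, it was *Pmepa1*, a target and inhibitor of Smad signalling, that was higher in MS-LS (32.9 against 15.5 CPM, 1.08 (0.52 to 1.63)). Of the Wnt list, 1 of 6 was higher in MS-LS (*Frzb*) and 3 of 8 in OB-EB, with medians of 0.08 and 0.25. In OB-EB these included *Rspo3*, a ligand that boosts Wnt signals (46.5 against 16.1 CPM, 1.53 (0.93 to 2.12)), and *Lef1*, a nuclear effector of the pathway (143 against 68.6 CPM, 1.06 (0.74 to 1.36)). *Lef1* stood at 44.9 and 40.6 CPM in MS-LS, and *Ctnnb1* (beta-catenin), the most abundant member, had ratios of 0.01 and 0.11. Of the FGF list, 2 of 7 were higher in MS-LS and 3 of 7 in OB-EB, with medians of 0.37 and 0.25: *Fgf8* and the feedback inhibitor *Spred1* in both (0.86 and 0.67), and *Dusp6*, a phosphatase that turns ERK off, in OB-EB (0.78; 0.55 in MS-LS). The FGF feedback gene *Spry2*, the list's most abundant in epiblast cells, was within 1.5-fold, at -0.37 and -0.12.

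The BMP list split in MS-LS, with 3 of 7 measured members higher and 1 lower (median 0.35), and had 1 of 5 higher in OB-EB (median -0.03). The ligand *Bmp2* was higher in MS-LS (45.6 against 8.21 CPM, 2.47 (1.88 to 3.09)), as were *Fst* and the pseudoreceptor *Bambi* (0.83 (0.30 to 1.35)). *Id2*, a target of BMP signals, was lower in MS-LS (67.7 against 171 CPM, -1.34 (-1.65 to -1.04); -0.64 against epiblast cells without *Elf5*, *Ascl2* and *Apob*), while *Id3*, the most abundant member in epiblast cells, had ratios of 0.02 and -0.20. Of the Notch list, 1 of 3 was higher in MS-LS and 2 of 4 in OB-EB, with medians of 0.39 and 0.54. *Hes1*, a repressor induced by Notch and other signals, was higher in both, at 950 CPM in streak and 381 CPM in epiblast cells of the MS-LS library, and 211 and 127 CPM in OB-EB. For *Hes1* the log2 ratios were 1.32 (1.22 to 1.42) and 0.74 (0.49 to 0.98). The ligand *Jag1* was higher in OB-EB (0.72 (0.17 to 1.24)), a value that turned to -0.11 when cells were thinned to 2000 UMIs before the rule.

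Epithelial and mesenchymal genes moved apart in part. Both measured mesenchymal genes, *Cdh2* and the matrix protein fibronectin (*Fn1*), were higher in both libraries (medians 1.75 and 1.35), with *Fn1* at 108 CPM in streak and 43.1 CPM in epiblast cells of the MS-LS library, and 157 and 65.2 CPM in OB-EB. For *Fn1* the log2 ratios were 1.33 (1.02 to 1.64) and 1.27 (0.96 to 1.57). Of the epithelial list, 2 of 11 were lower in MS-LS and 4 of 10 in OB-EB, with none higher and medians of -0.39 and -0.30. Without the cells rich in visceral endoderm or extra-embryonic ectoderm genes, 1 was higher and 1 lower in MS-LS and 5 were lower in OB-EB. The tight junction gene *Cldn6* was lower in both (-0.60 (-0.94 to -0.27) and -1.07 (-1.75 to -0.46)), and *Cldn7* (-1.22 (-1.93 to -0.58)) and the adhesion protein *Epcam* (-0.67 (-0.95 to -0.39)) in OB-EB. *Cdh1* (E-cadherin) stood at 85.2 CPM in streak and 112 CPM in epiblast cells of the MS-LS library, and 74.0 and 68.1 CPM in OB-EB, within 1.5-fold in both. In streak cells N-cadherin was thus higher while E-cadherin was within 1.5-fold.

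Of the pluripotency and epiblast list, 8 of 18 measured members were lower in MS-LS and 7 of 15 in OB-EB (medians -0.40 and -0.50). *Sox2*, the partner of *Pou5f1* in pluripotent cells, stood at 36.9 CPM in streak and 65.2 CPM in epiblast cells of the MS-LS library, and 53.9 and 122 CPM in OB-EB. For *Sox2* the log2 ratios were -0.82 (-1.27 to -0.40) and -1.18 (-1.63 to -0.76). *Dnmt3b*, a DNA methyltransferase and the most abundant member, stood at 719 CPM in streak and 1017 CPM in epiblast cells of the MS-LS library, and 656 and 1018 CPM in OB-EB. For *Dnmt3b* the log2 ratios were -0.50 (-0.60 to -0.40) and -0.63 (-0.76 to -0.51). The kinase *Pim2* (-0.94 and -0.96) and the RNA-binding protein *L1td1* (-0.63 and -0.83) were lower in both, and the methyltransferase *Dnmt3a* (-0.65) and the forkhead factor *Foxd3* (-1.42) in MS-LS. *Nanog*, a pluripotency factor retained in the posterior epiblast, went the other way in MS-LS (43.6 against 21.3 CPM, 1.03 (0.56 to 1.502)). Of the neural and surface ectoderm list, none of 3 measured members passed 1.5-fold in MS-LS and 1 of 3 in OB-EB (*Ptn*, -0.60 (-1.28 to 0.02)), with medians of -0.08 and -0.12; its most abundant member, *Sox11*, had ratios of 0.18 and 0.19.

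Of the list of anterior streak, node and endoderm genes, 6 of 7 measured members were higher in MS-LS (median 2.17); in OB-EB 2 of 3 were higher and 1 lower (median 1.49). Fewer reached 100 UMIs in OB-EB, so the counts cannot be set against each other. *Foxa2*, a forkhead factor of node and endoderm, stood at 91.9 CPM in streak and 16.2 CPM in epiblast cells of MS-LS, 2.50 (2.08 to 2.93). *Gsc*, a homeobox factor of the anterior streak, stood at 69.7 and 11.3 CPM (2.62 (2.13 to 3.14)), and *Gata6*, a factor of endoderm and mesoderm, at 59.0 and 17.1 CPM (1.79 (1.33 to 2.25)). In OB-EB, under 100 UMIs, these genes had ratios of 1.90 (1.02 to 2.78) for *Foxa2*, 1.99 (0.95 to 3.03) for *Gsc* and 1.02 (0.15 to 1.84) for *Gata6*, given after the values were seen. *Sox17*, a factor of definitive endoderm, was barely past the threshold (0.60 (0.01 to 1.16)) and changed sign under 4 alternatives. In OB-EB the lower member was *Trh*, which encodes thyrotropin-releasing hormone (47.5 against 80.2 CPM, -0.75 (-1.24 to -0.30)). Of the streak regulator list, 1 of 1 in MS-LS (*Lhx1*) and 2 of 2 in OB-EB were higher, with medians of 2.60 and 1.24; the second was *Sp8*, a zinc finger factor and the most abundant member in OB-EB (171 against 110 CPM, 0.63 (0.36 to 0.90); 0.56 without the cells rich in visceral endoderm or extra-embryonic ectoderm genes).

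Several genes of nascent mesoderm, whose cells the rule kept out through *Mesp1*, were higher in streak cells. Of that list, 2 of 4 measured members were higher and 1 lower in MS-LS, and 5 of 6 higher and 1 lower in OB-EB (medians 0.68 and 0.89). *Ifitm1*, a membrane protein of the streak and early mesoderm, stood at 188 CPM in streak and 68.4 CPM in epiblast cells of the MS-LS library, and 338 and 142 CPM in OB-EB. For *Ifitm1* the log2 ratios were 1.46 (1.22 to 1.70) and 1.254 (1.05 to 1.46). *Phlda2*, an imprinted growth regulator and the most abundant member, stood at 585 CPM in streak and 409 CPM in epiblast cells of the MS-LS library, and 891 and 542 CPM in OB-EB. For *Phlda2* the log2 ratios were 0.52 (0.40 to 0.63) and 0.72 (0.60 to 0.83). *Mest*, another imprinted gene, had ratios of 0.85 and 0.68, but -0.17 and -1.33 with the study's streak barcodes; *Hand1*, a factor of lateral and extra-embryonic mesoderm, was higher in OB-EB (1.07 (0.45 to 1.67)). *Cited1*, a transcriptional co-regulator, was the lower member, at -1.96 and -0.62, and became 0.10 and 0.64 against epiblast cells without *Elf5*, *Ascl2* and *Apob*. The primordial germ cell list had 1 measured member, *Ifitm3*, higher in both libraries (0.66 (0.22 to 1.09) and 0.70 (0.18 to 1.21); below 0 under 3 alternatives), and the blood and endothelium list also 1, the ETS factor *Etv2*, higher in MS-LS (1.10 (0.70 to 1.502); below 0 under 2 alternatives) and within 1.5-fold in OB-EB (0.35). Embryonic globin genes had no UMI in MS-LS streak cells, and *Klf1* and *Cdh5* none in streak cells of either library. No Hox gene was measured in either library. Summed, the Hox list stood at 8.72 CPM in streak and 4.44 CPM in epiblast cells of MS-LS, 0.97 (-0.16 to 2.05). In OB-EB the sums were 44.4 and 13.0 CPM, 1.77 (1.13 to 2.41).

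Genes of growth and of the response to handling were mostly within 1.5-fold against all epiblast cells. None of the 18 S and G2/M phase genes passed 1.5-fold in either library (medians 0.05 and 0.03), with *Ccnb1*, cyclin B1, the most abundant at 269 CPM in streak and 278 CPM in epiblast cells of the MS-LS library, and 291 and 265 CPM in OB-EB. Among G1 cyclins and inhibitors, 1 of 4 was higher in MS-LS and 2 of 4 in OB-EB (medians 0.02 and 0.53): *Ccnd2*, cyclin D2, in both (1.17 (0.81 to 1.53) and 0.80 (0.58 to 1.03)) and *Ccnd1*, cyclin D1, in OB-EB (0.77 (0.41 to 1.12)). Of the glycolysis list, 2 of 17 were lower in MS-LS and none of 16 in OB-EB (medians -0.06 and -0.13). The lower members were the glucose transporters *Slc2a1* (-0.88 (-1.18 to -0.59)) and *Slc2a3* (-0.63 (-0.85 to -0.42), and 0.13 against epiblast cells without *Elf5*, *Ascl2* and *Apob*), while *Ldha*, lactate dehydrogenase and the most abundant in MS-LS, had a ratio of 0.05. None of 5 and 2 measured stress genes (medians 0.28 and 0.12) and none of 10 and 9 measured reference genes (medians 0.03 and 0.07) passed 1.5-fold. Without the cells rich in visceral endoderm or extra-embryonic ectoderm genes, 2 of the 5 stress genes were higher in MS-LS.

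The 11 streak genes listed here are a part of those the study named, which also include *Gsc*, *Tdgf1* and *Bmp2*. The study gave *Foxa2*, *Lhx1* and *Hes1* as enriched in the anterior streak of MS-LS, and *Sp8*, *Amt* and *Notch2* in the OB-EB streak. Those enrichments came from comparing streak clusters with each other. The counts below set streak cells against epiblast cells, so they do not test that comparison. Of the 11, 8 of 10 measured were higher in MS-LS and 8 of 10 in OB-EB (medians 1.53 and 0.92). Of the study's 8 epiblast genes, 6 of 8 were lower in MS-LS and 8 of 8 in OB-EB (medians -0.93 and -1.07). These genes were chosen on these samples, so the counts are not independent evidence. *Apln*, which encodes the peptide apelin, was among the former (51.6 CPM in streak and 17.1 CPM in epiblast cells of the MS-LS library, and 61.3 and 29.9 CPM in OB-EB, log2 ratios of 1.60 (1.12 to 2.07) and 1.03 (0.55 to 1.51)). Relative to epiblast cells, the only lower streak gene was *Amt*, an enzyme of glycine cleavage. *Amt* was past 1.5-fold in MS-LS (-1.03 (-1.60 to -0.50)) and within 1.5-fold in OB-EB (-0.51). Without the cells rich in visceral endoderm or extra-embryonic ectoderm genes, the counts were 7 of 10 higher in OB-EB and 7 of 8 lower in MS-LS, the others as before. *Wfdc2*, a secreted protease inhibitor among the epiblast genes, stood at 61.0 CPM in streak and 115 CPM in epiblast cells of the MS-LS library, and 70.8 and 114 CPM in OB-EB. For *Wfdc2* the log2 ratios were -0.92 (-1.254 to -0.59) and -0.69 (-1.09 to -0.32).

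Streak cells varied among themselves along the amount of *T* and *Mixl1*. The classes with 1, 2 and 3 or more UMIs of these genes together, which chose the classes, held 187, 57 and 43 cells in MS-LS and 162, 55 and 61 in OB-EB, with median UMIs per cell of 4114, 4930 and 5025 and of 2909.5, 2946 and 3656. They are set beside epiblast cells and beside cells just outside the rule, with *Eomes* but no *T* or *Mixl1* (and no *Mesp1*, *Elf5*, *Ascl2* or *Apob*), 320 in MS-LS and 127 in OB-EB. From epiblast cells through the *Eomes* class to the classes with 1, 2 and 3 or more UMIs, *Utf1* stood at 328, 189, 99.6, 58.2 and 25.4 CPM in MS-LS and 219, 106, 58.3, 93.9 and 37.5 CPM in OB-EB. Over the same 5 classes *Fst* stood at 43.1, 116, 130, 233 and 309 CPM in MS-LS and 110, 218, 256, 203 and 425 CPM in OB-EB. The order was unbroken in MS-LS for both genes, downwards for *Utf1* and upwards for *Fst*, and broken in OB-EB at the class with 2 UMIs. *Frzb* stood at 11.8, 28.3, 63.9, 48.0 and 113 CPM in MS-LS and 36.2, 70.4, 103, 156 and 200 CPM in OB-EB, *Tdgf1* at 102, 189, 249, 401 and 320 CPM and 46.9, 92.4, 118, 167 and 209 CPM, and *Slc7a3* at 113, 81.2, 47.6, 20.6 and 21.8 CPM and 70.0, 59.4, 31.1, 10.4 and 12.5 CPM. In both libraries the *Eomes* class lay between epiblast cells and the class with 1 UMI for each of these 5 genes.

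*Pou3f1* stood at 99.0, 65.2, 31.4, 41.1 and 14.5 CPM in MS-LS and 261, 233, 105, 130 and 33.4 CPM in OB-EB over those classes, so that in OB-EB the *Eomes* class was close to epiblast cells. *Cer1* ran differently: in MS-LS it was highest in the class with 1 UMI, at 175 CPM, against 54.8 and 61.7 CPM in the classes above. Cells past the rule through *Mesp1*, 244 in MS-LS and 219 in OB-EB once *Elf5*, *Ascl2* and *Apob* are kept out, had more *Lhx1* (208 and 205 CPM) and more *Fn1* (285 and 306 CPM) than the streak cells did (117 and 149 CPM, and 108 and 157 CPM). Their *Utf1* was lower still, at 36.8 and 21.7 CPM, as the plot of levels by class shows.

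**Figure D4:**
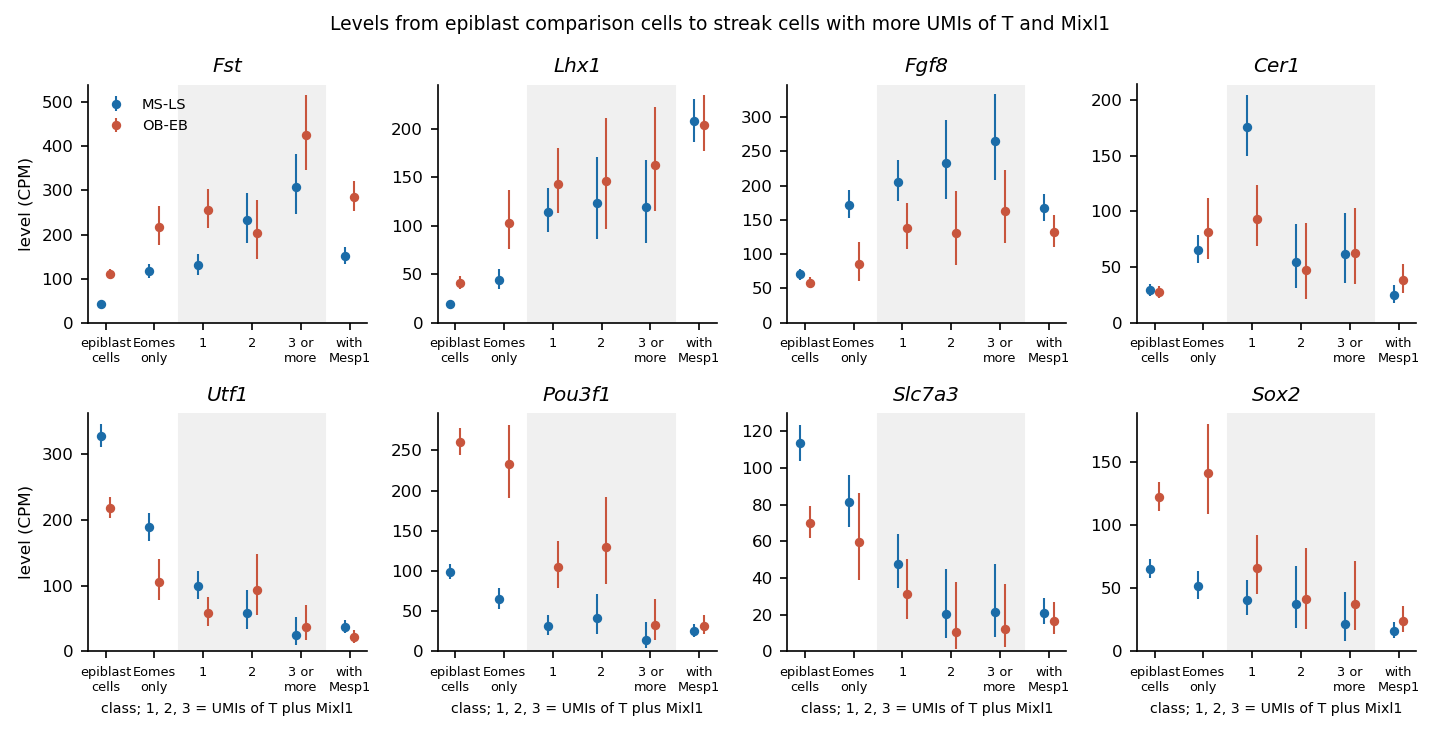
Level (CPM, with exact Poisson 95% intervals) of 8 genes in MS-LS (blue) and OB-EB (red) across 6 classes: epiblast cells, cells with Eomes only, streak cells with 1, 2 and 3 or more UMIs of T plus Mixl1 (grey band), and cells that met the streak rule but had Mesp1. Utf1, Slc7a3 and Sox2 stand lower in the grey band than in epiblast cells in both libraries, and Fst, Lhx1 and Fgf8 higher; Cer1 peaks at 1 UMI.

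The mix of *T* and *Mixl1* is given for each library, and the libraries differ in depth. In MS-LS 127 streak cells (44.3%) had *T* only, 118 (41.1%) *Mixl1* only and 42 (14.6%) both; in OB-EB the counts were 175 (62.9%), 48 (17.3%) and 55 (19.8%). *Eomes* was present in 151 streak cells of MS-LS (52.6%) and 80 of OB-EB (28.8%), and in 33.5% and 12.3% of the cells with *Elf5*, *Ascl2* or *Apob*. Thinned to 1500 UMIs, the shares were 24.3% and 13.1% of streak cells and 14.5% and 5.36% of the others. Cells with *Eomes* (median UMIs 5297 and 3603.5) were deeper than those without it (3831 and 2899), and the part of depth in what follows was not tested. Between streak cells with and without *Eomes*, the log2 ratio of *Cer1* was -1.42 (-1.85 to -0.99) in MS-LS and -1.84 (-3.04 to -0.83) in OB-EB, and that of *Ifitm1* -0.92 (-1.27 to -0.57) and -0.90 (-1.31 to -0.51). *Apln* had ratios of 1.46 (0.61 to 2.41) and 1.36 (0.57 to 2.17), and *Fst* of 1.31 (0.88 to 1.77) and 0.66 (0.30 to 1.01). Streak cells with *Eomes* thus had more *Fst* and *Apln* and less *Cer1* and *Ifitm1* in both libraries. Some extra-embryonic markers also differed along this split: *Spink1* by 0.82 (0.60 to 1.05), *Apoa1* by 0.74 (0.14 to 1.37) and *Rbp4* by 1.06 (0.01 to 2.24) in MS-LS. For other markers there the interval spanned both directions: *Rhox5* 0.83 (-0.19 to 1.97), *Ttr* 0.23 (-0.40 to 0.88), *Apoa2* 0.21 (-1.03 to 1.56), *Apoe* -0.01 (-0.39 to 0.38) and *Apom* -0.20 (-1.10 to 0.73). In OB-EB *Spink1* was lower in cells with *Eomes*, at -0.35 (-0.70 to -0.003), as was *Rhox5*, at -2.74 (-5.08 to -1.08). The intervals of *Apoa1* (0.41 (-0.57 to 1.35)), *Ttr* (0.06 (-0.95 to 1.02)) and *Apoe* (0.03 (-0.52 to 0.56)) spanned both directions there. The part of these markers was not tested. Between cells with *T* only and with *Mixl1* only, *Lhx1* was lower in the former in both libraries (-0.50 (-0.99 to -0.01) and -0.92 (-1.57 to -0.25)), and so was *Hes1* (-0.20 (-0.36 to -0.03) and -0.75 (-1.30 to -0.18)). In MS-LS the cells with *T* only also had less *Gata6* (-1.28 (-2.03 to -0.56)) and *Gsc* (-1.001 (-1.71 to -0.32)) and more *Spink1* (1.71 (1.48 to 1.96)) and *Ifitm3* (2.56 (1.53 to 3.76)). Some other markers of extra-embryonic cells moved with *Spink1* there, *Apoa1* by 1.41 (0.78 to 2.08), *Ttr* by 0.97 (0.29 to 1.68), *Rbp4* by 0.95 (-0.03 to 1.99) and *Rhox5* by 1.13 (0.06 to 2.30). *Apoe* moved less, by 0.45 (0.04 to 0.87), and *Apom* (0.24 (-0.73 to 1.22)) and *Apoa2* (-0.32 (-1.69 to 1.02)) had intervals spanning both directions. The part of these markers in these differences was not tested. *Phlda2* went opposite ways, 0.45 (0.24 to 0.66) in MS-LS and -0.56 (-0.83 to -0.29) in OB-EB, and so did *Rhox5*, at -1.89 (-3.02 to -0.74) in OB-EB; the part of such cells in the OB-EB values of *Lhx1*, *Hes1* and *Phlda2* was not tested either.

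Differences between stages are given as OB-EB minus MS-LS in log2, with a counting interval, and were not tested. Of the higher genes, *Lhx1* (-0.75 (-1.24 to -0.25)), *Cdh2* (-0.74 (-1.30 to -0.18)), *Fst* (-0.70 (-1.04 to -0.35)), *Cer1* (-0.68 (-1.22 to -0.13)) and *Frzb* (-0.62 (-1.22 to -0.03)) had smaller ratios in OB-EB. Where the share of epiblast cells is above background, as for *Fst*, the epiblast level can be read: 110 CPM in OB-EB against 43.1 CPM in MS-LS. *Cer1* was lower in the streak cells of OB-EB (76.1 against 131 CPM). For the other 5 higher genes, from *Fgf8* (-0.37 (-0.75 to 0.01)) to *Gas1* (0.65 (-0.05 to 1.36)), the interval held 0. Among all genes, those whose ratio was most above that of MS-LS were *Emc2*, of the membrane complex that inserts proteins in the endoplasmic reticulum (1.43 (0.67 to 2.18)), *Cited1* (1.34 (0.56 to 2.13)), *Emilin1*, a matrix glycoprotein (1.31 (0.69 to 1.94)), *Trim44*, of the ubiquitin pathway (1.30 (0.65 to 1.95)) and *Peg10* (1.23 (0.64 to 1.82)). For *Cited1* and the imprinted gene *Peg10* the difference was 0.54 and 0.81 against epiblast cells without *Elf5*, *Ascl2* and *Apob*. Those most below were *Cxcl12* (-2.19 (-3.28 to -1.10)), *Thop1*, a peptidase (-1.54 (-2.55 to -0.52)), *Arhgef2*, a microtubule-bound exchange factor (-1.40 (-2.40 to -0.39)), *RP23-60P23.4* (-1.37 (-2.30 to -0.45)) and *Pom121*, of the nuclear pore (-1.36 (-2.22 to -0.51)). In OB-EB the *Arhgef2* ratio was 0.0033 with the study's streak barcodes, and in female cells of MS-LS that of *RP23-60P23.4* was -0.28. *Cxcl12*, a chemokine, stood at 30.2 CPM in streak and 19.8 CPM in epiblast cells of the MS-LS library, and 9.51 and 29.7 CPM in OB-EB, but its MS-LS ratio became -1.89 after thinning to 2000 UMIs.

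The share of cells with a UMI was compared at equal depth. *Fst* was found in 45.3% (39.4 to 51.3) of streak and 13.1% (11.1 to 15.4) of epiblast cells of MS-LS. It was found in 7.09% of the 1115 cells with *Elf5*, *Ascl2* or *Apob*, called background here, whose median was 4850 UMIs. Of these background cells, 82.0% were rich in visceral endoderm or extra-embryonic ectoderm genes (71.1% in OB-EB). Their shares can therefore hold expression of their own beside stray UMIs, and some of them also count as epiblast cells. With every cell thinned to 1500 UMIs the shares were 21.8%, 7.08% and 3.70%, leaving out 3, 32 and 7 shallower cells. In OB-EB *Fst* was found in 44.2% (38.3 to 50.3), 19.98% (17.8 to 22.3) and, of 544 background cells with a median of 3287 UMIs, 11.0%; thinned, the shares were 31.7%, 13.6% and 6.13%, leaving out 10, 145 and 22 cells. Streak cells thus carried *Fst* more often than both other groups, and epiblast cells more often than background. *Utf1* ran the other way, at 8.45% of streak, 35.2% of epiblast and 17.5% of background cells in MS-LS and 6.72%, 23.3% and 10.9% in OB-EB after thinning, from 24.7%, 61.4% and 37.5% and 14.7%, 37.9% and 21.7% before. In streak cells it was below the background share, which need not be a floor for this gene. *Frzb* was found after thinning in 8.80%, 1.60% and 2.26% of the same groups in MS-LS and 16.04%, 5.04% and 3.83% in OB-EB (23.3%, 4.54% and 6.01%, and 32.7%, 8.82% and 9.01% before). Its share in epiblast cells was near the background in both libraries, so neither expression nor its absence is read from it there. The same holds for *Lhx1*, with thinned shares of 2.59% in epiblast and 3.25% in background cells of MS-LS and 4.12% and 7.09% in OB-EB. For *Cdh2* these were 1.99% and 2.53%, and 5.50% and 4.21%. *Asb4* was near the background in streak cells after thinning, at 5.28% against 3.34% in MS-LS and 5.97% against 4.41% in OB-EB, and below it in epiblast cells (1.79% and 3.48%). *Cyp26a1* was more frequent in the background than in streak cells of MS-LS (41.1% against 29.3%, and 17.5% against 10.9% thinned), and in OB-EB it was in 16.4% and 15.1% (5.94% and 7.84% thinned).

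Several known streak genes had under 100 UMIs and were chosen for mention after their values were seen. *Sp5*, a target of Wnt signals, stood at 38.9 CPM in streak and 4.88 CPM in epiblast cells of the MS-LS library, and 35.9 and 10.7 CPM in OB-EB. For *Sp5* the log2 ratios were 2.99 (2.26 to 3.77) and 1.74 (1.03 to 2.45). *Evx1*, a homeobox factor of the posterior streak, stood at 10.7 CPM in streak and 1.997 CPM in epiblast cells of the MS-LS library, and 21.1 and 5.93 CPM in OB-EB, log2 ratios of 2.43 (1.16 to 3.79) and 1.83 (0.87 to 2.79). *Snai1*, the repressor that lowers E-cadherin at the streak, stood at 22.1 CPM in streak and 4.66 CPM in epiblast cells of the MS-LS library, and 24.3 and 8.19 CPM in OB-EB. For *Snai1* the log2 ratios were 2.25 (1.42 to 3.11) and 1.57 (0.71 to 2.41). *Lefty2*, a Nodal antagonist of mesoderm, stood at 29.5 CPM in streak and 7.32 CPM in epiblast cells of the MS-LS library, and 46.5 and 13.6 CPM in OB-EB, log2 ratios of 2.01 (1.33 to 2.71) and 1.78 (1.15 to 2.40). *Aplnr*, the apelin receptor, stood at 18.8 CPM in streak and 2.89 CPM in epiblast cells of the MS-LS library, and 39.1 and 8.19 CPM in OB-EB, log2 ratios of 2.70 (1.71 to 3.77) and 2.25 (1.51 to 3.01). *Dll1*, a Notch ligand of mesoderm, stood at 9.39 CPM in streak and 2.22 CPM in epiblast cells of the MS-LS library, and 38.0 and 8.19 CPM in OB-EB. For *Dll1* the log2 ratios were 2.08 (0.81 to 3.41) and 2.22 (1.47 to 2.97). Being chosen so, these 6 genes lend no support to the counts above. *Nodal* itself rested on 18 streak and 40 epiblast UMIs in MS-LS and 4 and 11 in OB-EB, and its ratios, 0.44 (-0.45 to 1.28) and 0.44 (-1.66 to 2.20), show no difference detectable at this depth.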

How the data were processed

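The authors deposited tables of UMI counts per gene and cell, made, per the submitters' processing notes, with Cell Ranger 3.0.2 on GRCm38, Seurat 3 and R 3.6.1. The EHF table was deposited 2 times with identical values and counted once. All deposited cells were used: none had under 1000 UMIs or 500 genes. The members and lists were chosen with earlier results of these data known. UMIs were summed over the cells of a group and scaled to CPM, with exact Poisson intervals for levels, conditional exact binomial ones for ratios and Clopper-Pearson ones for shares; a group at 0 was set to 3 UMIs. Genes named by rule are the 10 in each direction with the largest smaller log2 ratio over both libraries (at least 100 UMIs in each; rule, mitochondrial, ribosomal, sex-linked and vector genes left out), listed genes past 1.5-fold or most abundant, and the 5 in each direction differing most between stages. Scrublet marked 6 and 0 cells as doublets, so an alternative left out the top-scoring 5% of cells. Thinning was seeded. Results of some listed genes are not reported. Software: matplotlib 3.10.9, scanpy 1.11.5, pandas 2.3.3, scipy 1.17.1 and numpy 2.4.6 under Python 3.11.15.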

Additional observations from a re-analysis of the deposited data

Results flagged for a closer look

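For 3 genes the ratio of streak over epiblast cells passed 1.5-fold in opposite directions in MS-LS and OB-EB; the differences between stages were not tested. *Pom121*, a nuclear pore protein, had log2 ratios of 0.77 (0.31 to 1.22) in MS-LS and -0.62 (-1.46 to 0.13) in OB-EB. *Cxcl12*, a chemokine, had 0.61 (0.06 to 1.14) and -1.64 (-2.81 to -0.66). *RP23-60P23.4*, listed by its clone name, had 0.65 (0.07 to 1.203) and -0.75 (-1.62 to 0.01). Each rests on few UMIs, in streak and epiblast cells of MS-LS and OB-EB: 66 and 117, and 17 and 98 for *Pom121*; 45 and 89, and 9 and 105 for *Cxcl12*; 42 and 81, and 16 and 101 for *RP23-60P23.4*.

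In the EHF library, which the comparisons do not use, 426 of 3494 cells (12.2%, 11.1 to 13.3%) met the streak rule and 931 the rule for epiblast cells. Between them, 8 of the 10 genes named as higher and 10 of the 10 named as lower had the same direction as in MS-LS and OB-EB. The exceptions were *Cyp26a1* (log2 ratio -0.81, -1.32 to -0.33) and *Asb4* (-0.27, -0.80 to 0.24). The share of all genes that kept their direction was not counted. The EHF epiblast cells could hold *Elf5*, *Ascl2* or *Apob*, and no comparison without such cells was made there. The lower genes include *Rbp4* (-2.86), *Ttr* (-2.64), *Apoa1* (-2.49) and *Apom* (-2.32), of visceral endoderm.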

How the results depend on the processing

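No paired analysis was possible because each stage is 1 library. The number of streak cells fell from 287 and 278 to 180 and 166 after thinning to 2000 UMIs and to 100 and 116 with at least 2 UMIs of *T* and *Mixl1*, which ask more of a cell by construction. The counts of genes past 1.5-fold (higher and lower in MS-LS, higher and lower in OB-EB, higher and lower in both: 164, 214, 185, 192, 52 and 67) became 425, 472, 468, 432, 129 and 131 with a minimum of 50 UMIs, 52, 98, 61, 79, 20 and 37 with 200 and 2917, 1776, 2914, 1683, 895 and 496 with 1 UMI in both groups, which sets how many genes enter. Counts in both libraries again, an alternative chosen after seeing the data, were 23 higher and 28 lower after thinning (12 and 19 of them shared with the counts reported), 9 and 23 in female cells (5 and 18 shared) and 10 and 22 in male cells (7 and 15 shared); the groups by sex are smaller by construction, while thinning left 180 and 166 streak cells but 1067 and 847 epiblast cells. Of the 52 higher and 67 lower genes, 42 and 40 were shared against epiblast cells without *Elf5*, *Ascl2* and *Apob*, and 39 and 41 with the study's barcodes. Of 122 named values past 1.5-fold, all kept their sign when epiblast cells were weighted to the streak cells' depth, with a mean over cells, centred on the median gene, without the highest Scrublet scores, without cells of high mitochondrial share and with *T* alone; 117, 117, 122, 120, 122 and 113 stayed past 1.5-fold. The others left 96 of 120 after thinning, 110 of 121 with at least 2 UMIs, 109 of 122 with *Mixl1*, 100 against epiblast cells without *Elf5*, *Ascl2* and *Apob*, 99 without the cells rich in visceral endoderm or extra-embryonic ectoderm genes, 106 of 120 in female cells, 101 of 121 in male cells and 104 with the study's barcodes. Some lost 1.5-fold and kept their sign, such as *Mt2* in OB-EB (-0.54 after thinning). Values that changed sign follow as log2 ratios; the cause was not tested. With the study's streak barcodes, *Cer1* -2.77 in OB-EB, *Arhgef2* 0.0033 in OB-EB, *Sox17* -1.07 in MS-LS, *Mest* -0.17 in MS-LS, *Mest* -1.33 in OB-EB, *Ifitm3* -0.0902 in MS-LS and *Etv2* -0.0663 in MS-LS. Against epiblast cells without *Elf5*, *Ascl2* and *Apob*, *Rbp4* 0.44 in MS-LS, *Ttr* 0.0158 in MS-LS, *Apoa1* 0.33 in MS-LS, *Cited1* 0.0958 in MS-LS, *Cited1* 0.64 in OB-EB, *Peg10* 0.21 in MS-LS, *Apoa4* 0.22 in MS-LS, *Amn* 0.29 in MS-LS, *Cubn* 0.37 in MS-LS, *Spink1* 0.14 in MS-LS and *Slc2a3* 0.13 in MS-LS. Without the cells rich in visceral endoderm or extra-embryonic ectoderm genes (chosen after seeing the data), *Cited1* 0.25 in MS-LS, *Cited1* 0.88 in OB-EB, *Peg10* 0.16 in MS-LS, *Apoa4* 0.48 in MS-LS, *Amn* 0.18 in MS-LS and *Slc2a3* 0.0231 in MS-LS. With cells thinned to 2000 UMIs before the rule, *Cited1* 0.67 in OB-EB, *Peg10* 0.25 in MS-LS, *Cxcl12* -1.89 in MS-LS, *Jag1* -0.11 in OB-EB and *Sox17* -0.43 in MS-LS. In female cells, *RP23-60P23.4* -0.28 in MS-LS, but 118 of 120 values kept their sign, so it was not the only exception there. With at least 2 UMIs of *T* and *Mixl1*, *Sox17* -0.33 in MS-LS and *Mest* -0.14 in OB-EB. In male cells, *Sox17* -0.14 in MS-LS, *Ifitm3* -0.44 in OB-EB and *Etv2* -0.0899 in MS-LS. With at least 1 UMI of *Mixl1*, *Mest* -0.36 in OB-EB and *Ifitm3* -0.85 in MS-LS. Of the 10 genes named as higher, *Cer1* alone changed sign; in MS-LS it was 0.0027 after thinning and 0.0088 with the study's barcodes. Intervals cover counting error only, and 1 library per stage gives no spread between embryos; the rule needs a captured UMI, so epiblast cells can include cells whose *T* or *Mixl1* transcripts were missed, and streak cells can include cells with a single stray UMI.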

Other observations

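Below the 10 genes named as higher came *Ifitm1*, *Fn1* and *Apln*, given in the report, and *Peg3*, an imprinted zinc finger gene, with log2 ratios of 1.26 and 1.16 in MS-LS and OB-EB. The genes in this paragraph were chosen after their values were seen. *Smad1*, which carries BMP signals, had 0.78 and 1.003, *Cited2*, a transcriptional co-regulator, 0.90 and 0.86, and *Ptk7*, a co-receptor of planar polarity, 1.11 and 0.78. *Hmga2*, a chromatin protein, had 1.05 and 0.68, and the histone variant gene *H2afy* 1.23 and 0.70. Among the lower genes, *Fabp3*, a fatty acid carrier, had -1.62 and -1.48, the ubiquitin hydrolase gene *Uchl1* -1.51 and -1.41, *Podxl*, a sialomucin of the apical surface, -1.52 and -0.93, the imprinted RNA *H19* -1.56 and -0.90, and *Tet1*, an enzyme that oxidises methylcytosine, -0.59 and -0.81.

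The tdTomato reporter sequence was rare in both groups, with 6 and 28 UMIs in streak and epiblast cells of MS-LS and 11 and 48 in OB-EB, or 4.02 against 6.21 CPM and 11.6 against 13.6 CPM. *Noto*, a homeobox factor of the node chosen after its values were seen, had 16 and 12 UMIs in OB-EB (2.32 (1.15 to 3.53)).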
